A study of Mus musculus with 28 samples.

Results

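The cytosolic ribosomal protein genes were followed across 3 genotypes of the vitamin D receptor gene (Vdr) in mouse duodenum and kidney. The genes were found by symbol: Rpl or Rps followed by a digit, or Rplp0, Rplp1 and Rplp2, without the pseudogene symbols that carry "-ps" and without the S6 kinases (Rps6k). A gene was kept in a tissue when its mean level reached 1 CPM (counts scaled to a common library size). This left 83 of 92 such symbols in duodenum, out of 31179 symbols in all, and 80 of 91 in kidney, out of 30227. Of these, 82 and 77 passed the expression filter of the test.

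Each tissue had 6 libraries of wild-type mice (Vdr+/+, WT), 4 of receptor-null mice (Vdr-/-, KO) and 4 of Vdr AF2 mice (AF2), whose receptor signals without coactivators per the design text, 28 libraries in all. Activation function 2 (AF2) is the surface of the receptor through which, once bound by hormone, it recruits coactivators. The mice were females of 8 weeks, the kidney samples were cortex per the file headers, and all groups ate the Inotiv diet TD.96348, which is rich in calcium, phosphate and lactose. The study asked how a receptor that cannot use coactivators differs from no receptor at all in its effect on mineral balance. The strain, the alleles' construction and the deleted part of the receptor gene are not stated in the labels.

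A ribosome consists of ribosomal RNA and a set of proteins that are present once each, in a small subunit (Rps proteins), which reads the messenger RNA, and a large subunit (Rpl proteins), which joins the amino acids. The acidic stalk proteins Rplp1 and Rplp2 sit on their anchor Rplp0 and bring the elongation factors to the large subunit, and they are the exception to the rule of a single copy. Many ribosomal protein messages start with a C followed by a run of C and T, the terminal oligopyrimidine (TOP) motif, through which mTORC1 and Larp1 control their translation. Cells that divide or secrete much protein, such as those of intestinal crypts, are known for a high demand for ribosomes.

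Libraries held 3713352 to 25181916 counts in duodenum, where WT 2 was the deepest and the next had 6519522, and 3725648 to 6492228 counts in kidney. Vdr, the targeted gene, was at 266.8 to 645.7 CPM in duodenal WT libraries, 97.3 to 120.2 CPM in those of KO mice and 362.2 to 432.2 CPM in those of AF2 mice. In kidney the same ranges were 177.3 to 212.4, 7.94 to 22.1 and 64.9 to 91.9 CPM. A tag at the 3' end outside the deleted part would be counted in KO too, and whether that applies here was not tested. Duodenal libraries carried enterocyte markers at a summed level of 11800 to 25700 CPM and kidney libraries carried proximal tubule markers at 15900 to 22600 CPM. Library codes in the labels form 3 runs of consecutive numbers, called code runs here, with no statement of what a run was. WT has 2 libraries in each run per tissue, all KO libraries are in run 2 and all AF2 libraries in run 3. In kidney, the library AF2 4 stands apart from the rest. Over 11404 genes it had 218 (1.91%) at or under 1/4 of the median of the other AF2 libraries, against 8 to 40 genes in each of the other kidney libraries, so the main kidney results on AF2 are given with and without it.

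Ribosomal protein genes differed widely in measured level, with medians of 38 CPM in duodenum and 22.9 CPM in kidney. These are tag counts at transcript ends and need no division by length. In duodenum the genes with high means over all libraries included Rps20 (744.6 CPM), Rplp1 of the stalk (602.9 CPM) and Rps14 (495.3 CPM). In kidney they included Rpl4 (475.8 CPM), which lines the exit tunnel of the large subunit, Rps3 (346.2 CPM) and Rps14 (306.2 CPM). There were 31 genes at 100 CPM or more in duodenum and 23 in kidney, while 22 and 30 were under 10 CPM. The 10 highest genes gave 49.4% of all ribosomal protein counts in duodenum and 48.8% in kidney.

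The symbols found included 74 of 76 listed core ribosomal proteins in duodenum (29 of the small subunit, 42 of the large subunit and 3 of the stalk) and 69 in kidney (28, 38 and 3). Another 9 and 11 symbols were paralogs, retrogene copies or Rps19bp1, which binds Rps19 and is not itself a ribosomal protein. Just inside the threshold of 1 CPM lay Rpl10 (1.66), Rpl10a (1.81) and Rpl11 (2.00 CPM) in duodenum and Rpl11 (1.01), Rpl3l (1.10) and Rps27 (1.22 CPM) in kidney. Just outside lay Rps3a3 (0.881), Rpl6l (0.687) and Rpl24 (0.116 CPM) in duodenum and Rpl27 (0.967), Rpl28 (0.867) and Rpl10 (0.783 CPM) in kidney. Rps6, the small subunit protein phosphorylated by S6 kinase, was at 0.0498 CPM in duodenum and 0.0555 CPM in kidney, and Rpl24, which bridges the subunits, at 0.116 and 0.0872 CPM. Both proteins belong to every ribosome, yet the counts of their own symbols were close to 0 in both tissues.

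Low levels went with sequence near the stop codon that other annotated genes share. For each of the 76 core genes, the last 150 coding bases and up to 50 bases after the stop codon were cut into 50-base stretches, and each stretch was looked up in all other annotated transcripts (GENCODE vM21, GRCm38). At least 1 stretch recurred in another gene for 73 of the 76, with a median of 67.5% of stretches and 6 other genes. The 18 genes with under 50% of stretches shared had a median level of 462 CPM in duodenum and 226 CPM in kidney, and none of them was under 10 CPM. The 32 genes with 50% to under 75% shared had medians of 30.9 and 17.5 CPM. The 26 genes with 75% or more shared had medians of 9.35 and 4.15 CPM, and 13 and 19 of them were under 10 CPM. Spearman's rho between level and percent shared was -0.61 in duodenum and -0.65 in kidney, across genes that share libraries and are not independent replicates. The window of Rps3 and of Rpl4 had 0% shared, that of Rps6 70.6% with 10 other genes, and that of Rpl24 67.6% with 6. The transcript used for Rps3 went on for 1059 bases after the stop codon. Such a window does not reach the transcript end, where tags were counted. The percent also depends on window length. For Rpl15, 101 shared stretches were 90.2% of 112, and for Rpl11, 101 were 66.9% of 151. How reads that fit several genes were counted is not given in the sources used here, and its part in these levels was not tested. For these genes a low message level and reads counted elsewhere cannot be told apart.

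**Figure D1:**
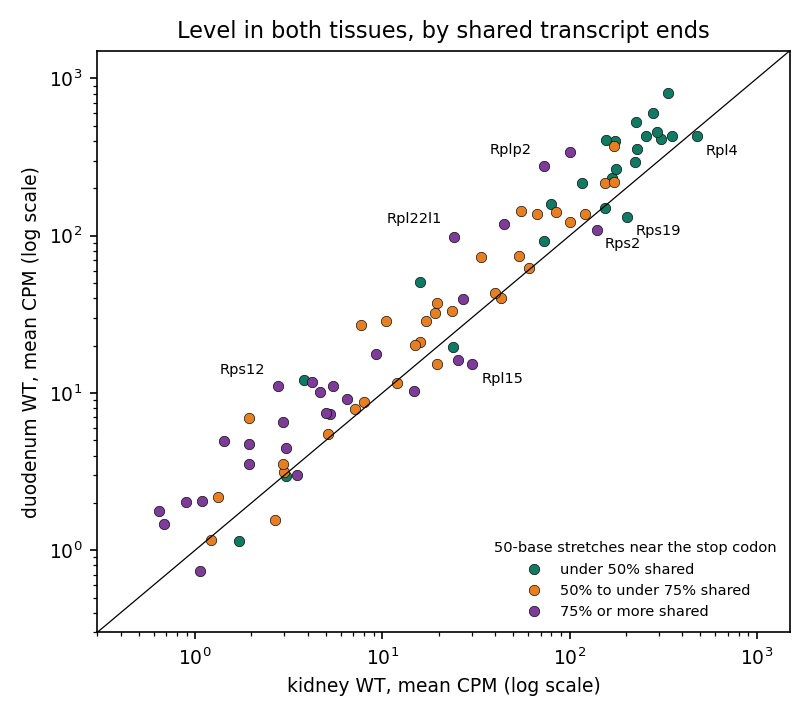
Mean level of each ribosomal protein gene in WT kidney (x axis, CPM, log scale) and WT duodenum (y axis, CPM, log scale), 6 libraries per tissue, 1 point per gene. Colours give the percent of 50-base stretches near the stop codon that other annotated genes share, and the diagonal marks equal levels. Most points lie above the diagonal, and purple points (75% or more shared) fill the lower left.

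Copies of ribosomal protein genes were part of the set. Rps27 (chromosome 3, 90212522 to 90213651) and its single-exon copy Rps27rt (chromosome 9, 114982366 to 114982739) both had 100% of stretches shared. Rps27 measured 2.38 CPM and Rps27rt 22.02 CPM in duodenum, and 1.22 and 21.5 CPM in kidney, so the copy was counted above its parent. Rps4l, annotated as a transcribed processed pseudogene on chromosome 6 (148354656 to 148355598), was likewise above its parent Rps4x on the X chromosome, at 51.6 against 9.52 CPM in duodenum and 16.4 against 4.93 CPM in kidney. Rpl37rt (3.32 and 2.83 CPM) and Rpl32l (12.5 and 4.10 CPM) were far below Rpl37 (234.6 and 183.1 CPM) and Rpl32 (466.4 and 255.0 CPM). Rps27l, a paralog known as a target of p53, was at 148.7 and 153.9 CPM. Rpl7l1, which acts in the making of the large subunit, was at 43.8 and 37.0 CPM. For copies without a coding transcript the last 200 bases were searched. Of those stretches, 29.1% were shared for Rps4l, 0% for Rpl37rt and 30.5% for Rpl32l. Copies cannot be told apart where their sequence is identical, and among these genes the share was 100% only for Rps27 and Rps27rt. The window of Rps4x, the parent of Rps4l, had 66.2% of stretches shared, with 5 other genes. For Rps4x a low message level and reads counted elsewhere cannot be told apart.

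The start sites of ribosomal protein genes are where their messages carry the TOP motif. The sequences below show the 15 bases before and 15 bases from the RefSeq start (GRCm38.p6, the gene's own strand, the only one searched). Capitals mark the motif, a C followed by 4 or more bases that are C or T. The first lines are genes whose motif begins at the start itself, the next 2 begin a few bases later, and Rpl4 and Rps3 are highly counted genes in which no motif begins from 5 bases before to 10 bases after the start. The run of C and T at the left end of the Rpl4 window begins before that stretch and is not marked.
Rps15a (chr7:118116133-118116162, minus): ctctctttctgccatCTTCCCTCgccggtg
Rps18 (chr17:33955651-33955680, minus): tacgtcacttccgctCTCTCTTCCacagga
Rpl14 (chr9:120571502-120571531, plus): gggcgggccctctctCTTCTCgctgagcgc
Rpl15 (chr14:18270972-18271001, minus): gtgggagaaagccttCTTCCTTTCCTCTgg
Rplp2 (chr7:141447636-141447665, plus): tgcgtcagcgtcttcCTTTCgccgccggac
Rps27 (chr3:90213634-90213663, minus): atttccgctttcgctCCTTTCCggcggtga
Rps27rt (chr9:114982725-114982754, minus): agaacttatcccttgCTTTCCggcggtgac
Rps26 (chr10:128626492-128626521, minus): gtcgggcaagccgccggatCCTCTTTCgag
Rpl22l1 (chr3:28805493-28805522, plus): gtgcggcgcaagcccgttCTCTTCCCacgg
Rpl4 (chr9:64173372-64173401, plus): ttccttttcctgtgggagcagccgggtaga
Rps3 (chr7:99483695-99483724, minus): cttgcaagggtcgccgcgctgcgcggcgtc
Of 85 genes kept in either tissue, 63 had a start in the RefSeq table. The motif began exactly at the start in 14 of the 63 (22.2%), against 3.0% of 27025 genes with a start, and within 5 bases before to 10 bases after it in 57.1%, against 26.5%. Of 69 mitochondrial ribosomal protein genes, 0% had it at the start and 30.4% near it. In duodenum the 35 tested genes with the motif near the start had a median log2 fold change of 0.18 in KO and 0.22 in AF2 against WT, and the 26 without it 0.21 and 0.22, so these medians were alike in both classes. A missing match says only that no such run begins in that stretch.

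In the duodenum of KO mice no ribosomal protein gene passed the test, while most measured somewhat higher than in WT. Of 82 genes, 68 (82.9%) had a higher mean in KO, and the median log2 fold change was 0.20, against 49.6% higher and a median of -0.0036 over all 13302 genes tested. edgeR's quasi-likelihood test called 0 of the 82 at an adjusted p under 0.05 (smallest 0.241), where 0.0226% of all genes were called. DESeq2 and limma-voom also called 0, and 12 of the 82 (14.6%) had an unadjusted p under 0.05, all higher in KO. Over all genes the share was 11.4%, with 4.89% higher and 6.53% lower. The groups did not overlap for 6 genes, all higher in KO, where 2.2% of all genes did not overlap.

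Among them were Rps20, Rps26, Rps2, Rpl26 and Rpl31. Rps20, a protein of the head of the small subunit, ranged from 530.6 to 669.3 CPM in WT (median 616.7) and was 744.5, 745.4, 825.3 and 778.2 CPM in KO 1 to KO 4. Every KO library lay above every WT library, by a log2 fold change of 0.33 ± 0.11 (SE, adjusted p 0.241). Rps26, which lines the channel through which the message leaves, ranged from 353.8 to 463.7 CPM in WT (median 430.0) and was 468.2, 532.1, 491.1 and 468.7 CPM in KO. The lowest KO library was within 5 CPM of the highest WT library, and the log2 fold change was 0.24 ± 0.11 (adjusted p 0.396). Rps2, at the channel where the message enters, had a WT mean of 111.3 ± 7.11 CPM (SD, n = 6) and a KO mean of 135.6 ± 13.7 CPM (SD, n = 4; adjusted p 0.296 by edgeR). Rpl26, near the end of the exit tunnel, measured 221.5 ± 24.3 and 276.9 ± 16.5 CPM (adjusted p 0.269), and its neighbour there, Rpl31, 17.9 ± 3.337 and 23.8 ± 0.848 CPM (adjusted p 0.385).

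The largest log2 fold changes in KO belonged to thinly counted genes. Rpl10a, a protein of the mobile stalk where transfer RNA leaves, ranged from 0 to 1.94 CPM in WT (median 0.711) and was 1.02, 1.52, 3.41 and 2.28 CPM in KO. The groups overlapped, and the log2 fold change of 1.24 had an SE of 0.67 (adjusted p 0.478). Rpl11, which with Rpl5 and 5S RNA binds Mdm2, ranged from 0 to 3.339 CPM in WT (median 0.720) and was 3.07, 1.01, 2.13 and 2.74 CPM in KO, also with overlap (log2 fold change 0.85 ± 0.71). Next were Rps10 (0.82), Rps7 (0.61) and Rpl21 (0.60), all with WT means under 10 CPM. The lowest log2 fold changes were -0.40 for Rpl27, -0.18 for Rps3a1, -0.14 for Rpl19, -0.14 for Rpl35 and -0.13 for Rps27l, and none of these passed. The 73 core genes tested were higher in 89.0%, with a median of 0.20, and the 9 other symbols in 33.3%, with a median of -0.071.

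**Figure D2:**
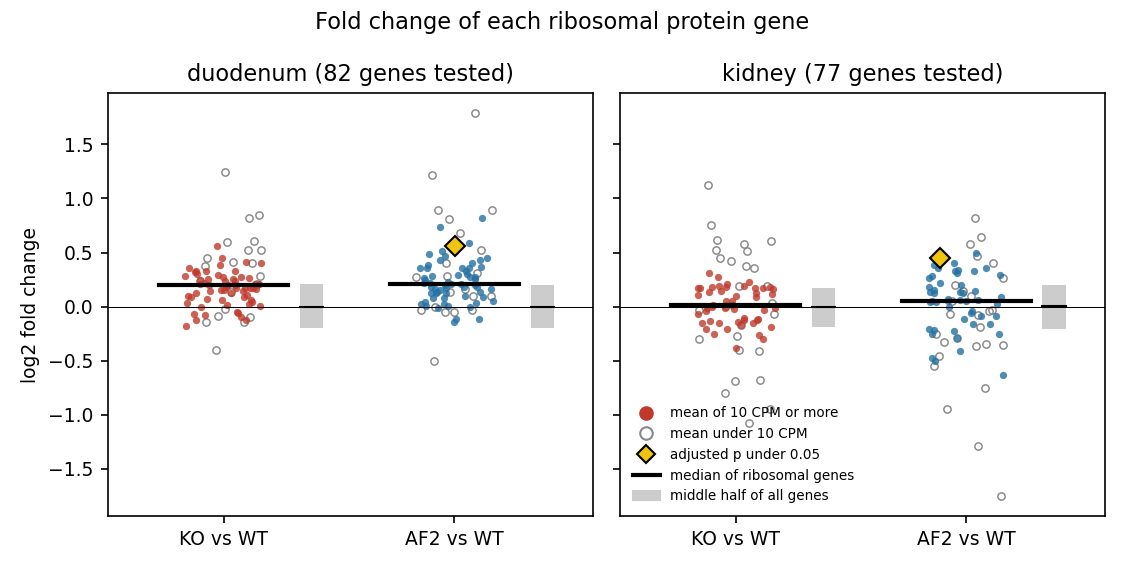
Log2 fold change of each tested ribosomal protein gene (y axis) in KO and AF2 against WT, in duodenum and kidney, 1 point per gene. Heavy lines are medians over these genes, grey boxes run from the lower to the upper quartile of all genes tested, with their median, open points are genes under 10 CPM and yellow diamonds passed the test. The duodenal medians lie at 0.20 and 0.21, near the top edge of the grey boxes, and the kidney medians at 0.018 and 0.048.

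In AF2 duodenum a single gene passed the test, Rps20. Against the WT range given for it, its level was 853.3, 800.9, 880.3 and 1085 CPM in AF2 1 to AF2 4. Every AF2 library lay above every WT library, and the KO libraries lay between the WT range and the highest AF2 library. The means were 615.3 ± 48.5 CPM in WT (SD, n = 6) and 904.9 ± 124.6 CPM in AF2 (SD, n = 4), and the log2 fold change was 0.56 ± 0.11 (edgeR, adjusted p 0.0392). The call was lost when WT 1, 2, 3, 5 or 6 or AF2 1, 3 or 4 was left out, with adjusted p from 0.0643 to 0.216, and under limma-voom (0.0742), while the log2 fold change stayed between 0.46 and 0.59 in these fits. Within code run 3, WT 5 and WT 6 had 604.4 and 530.6 CPM, below all 4 AF2 libraries.

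Across the 82 genes 71 (86.6%) were higher in AF2 than in WT, with a median log2 fold change of 0.21, against 50% and 0.00024 over all genes. The test called 1 of 82, where 0.0677% of all genes were called, and 21 (25.6%) had an unadjusted p under 0.05, all higher in AF2. Over all genes the share was 11.8%, with 4.95% higher and 6.81% lower. The groups did not overlap for 7 genes, all higher in AF2, against 2.73% of all genes. Beside Rps20 and Rps26 these were Rplp1, Rps24, Rpl17, Rps23 and Rpl10a. The stalk gene Rplp1 ranged from 470.6 to 589.7 CPM in WT (median 544.8) and was 717.8, 734.3, 742.7 and 718.7 CPM in AF2. The AF2 libraries lay close together and above every WT and KO library (KO: 572.6, 674.5, 574.3 and 476.0 CPM), and the log2 fold change against WT was 0.44 ± 0.11 (adjusted p 0.0921). Rps26 was 522.0, 479.2, 577.3 and 555.2 CPM in AF2, all above the WT range given for it, with a log2 fold change of 0.36 ± 0.11 (adjusted p 0.175). DESeq2 called Rplp1 and Rps26 beside Rps20, and 156 genes in all against 9 by edgeR.

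Lower counted genes had larger fold changes with larger errors. Rpl17, which lines the exit tunnel, ranged from 6.01 to 9.19 CPM in WT (median 7.55) and was 11.9, 9.46, 11.7 and 17.8 CPM in AF2. Its groups did not overlap, at a log2 fold change of 0.74 ± 0.26 (adjusted p 0.254). Rps23, at the decoding centre, ranged from 3.08 to 5.89 CPM in WT (median 5.25) and was 5.93, 6.42, 12.6 and 12.9 CPM in AF2, so that AF2 1 lay only just above WT (log2 fold change 0.89 ± 0.30, adjusted p 0.239). Rpl10a was 2.97, 2.70, 2.16 and 4.46 CPM in AF2, above all WT libraries, with a log2 fold change of 1.79 ± 0.64 (adjusted p 0.272). Rpl11 was 1.98, 1.01, 4.76 and 3.96 CPM, overlapping WT (1.22 ± 0.69). Rps27rt, the copy of Rps27, ranged from 9.02 to 20.5 CPM in WT and was 32.1, 17.9, 21.2 and 46.1 CPM in AF2, with overlap (0.82 ± 0.24, adjusted p 0.167). Rps7 (0.90) completed the highest 5 with Rpl10a, Rpl11, Rps23 and Rps27rt. Without AF2 4 the value of Rps7 was 0.29 and that of Rps27rt 0.51. Among the lowest were Rpl35 (-0.51), Rps19 (-0.14), Rps25 (-0.11) and Rpl30 (-0.11), none of which passed.

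**Figure D3:**
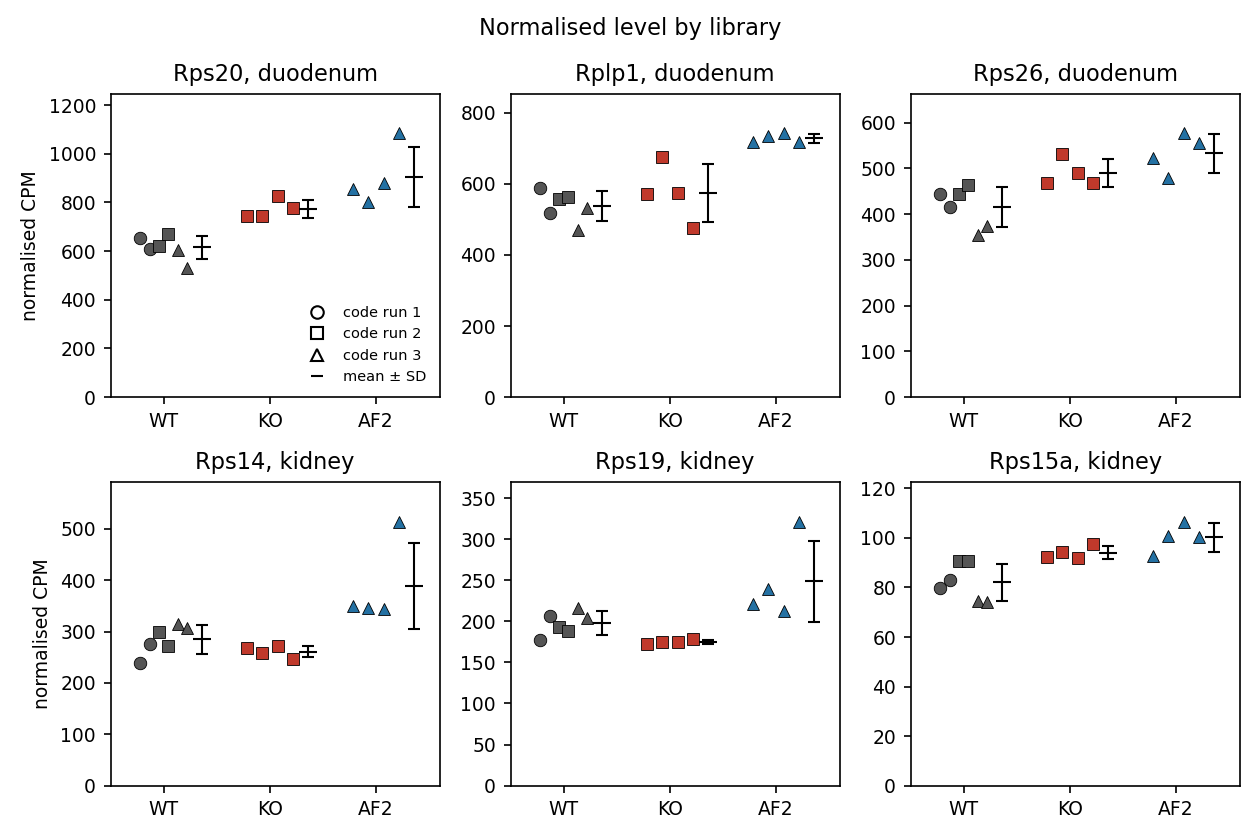
Normalised level (y axis, CPM, from 0) of 3 genes in duodenum and 3 in kidney, by genotype, with 6 WT, 4 KO and 4 AF2 libraries. Symbols give the code run and bars the mean ± SD. Rps20 and Rplp1 lie higher in every AF2 duodenal library than in any WT library, and for kidney Rps14 and Rps19 the library AF2 4 lies far above the other 3 AF2 libraries.

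Both mutants were compared with the same WT libraries, so their values are given only side by side. Of 82 genes 61 were higher than WT in both, 4 lower in both, 7 higher in KO alone and 10 higher in AF2 alone. Compared directly, AF2 and KO duodenum gave 0 calls among the 82 genes by edgeR, DESeq2 and limma-voom, where 0.015% of all genes were called by edgeR. An unadjusted p under 0.05 was found for 6 genes higher in AF2 (Rplp1, Rps15a, Rps23, Rpl15, Rpl22l1 and Rpl32) and 2 lower (Rps2 and Rpl30), 9.76% of the 82 against 9.98% of all genes. The groups did not overlap for 3 genes higher in AF2 (Rplp1, Rps15a and Rps23) and for Rps2, which was lower, where 6.56% of all genes did not overlap. The median log2 fold change of AF2 against KO was 0.066, and it was -0.0044 without AF2 4 and 0.13 without AF2 2. The same median over small subunit genes was 0.073 and over large subunit genes 0.021.

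Summed over all ribosomal protein genes, the share of library counts in duodenum was 1.04, 1.03, 1.03, 1.17, 0.867 and 0.838% in WT 1 to WT 6. It was 1.29, 1.18, 1.24 and 1.07% in KO and 1.17, 1.08, 1.43 and 1.30% in AF2. The means were 0.995 ± 0.124% in WT (SD, n = 6), 1.19 ± 0.0928% in KO and 1.245 ± 0.151% in AF2 (SD, n = 4 each), and both mutant groups overlapped WT through WT 4. Within code run 2 the range of WT 3 and WT 4 (1.03 to 1.17%) overlapped that of KO (1.07 to 1.29%). Within code run 3 WT 5 and WT 6 (0.838 to 0.867%) lay below all AF2 libraries (1.08 to 1.43%). With the code run as a term in the fit, the median log2 fold change was 0.068 in KO and 0.40 in AF2 against WT, and 6 genes passed in AF2 (Rpl10a, Rpl14, Rps15a, Rps20, Rps26 and Rps27rt). That fit called 131 of all genes, against 9 without the term. In that fit KO was set against WT 3 and WT 4 alone, and AF2 against WT 5 and WT 6 alone. WT 5 and WT 6 had the lowest shares of all. KO and AF2 do not share a run, so AF2 against KO takes its run correction from the WT libraries alone.

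**Figure D4:**
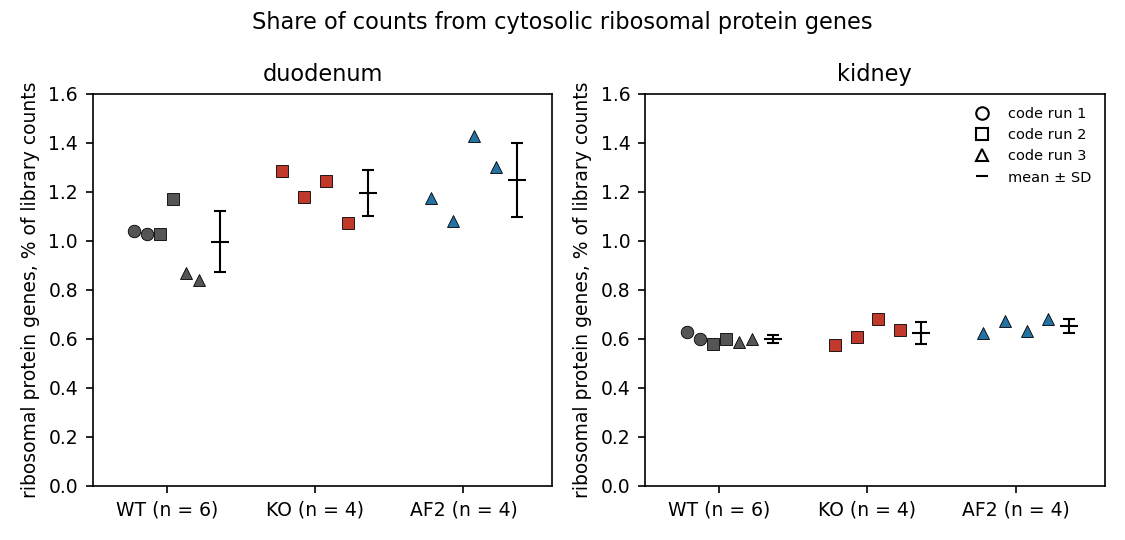
Share of library counts from ribosomal protein genes (y axis, percent, from 0) by genotype in duodenum and kidney, 1 symbol per library, with the shape giving the code run and bars the mean ± SD. Duodenal WT libraries of run 3 (0.838 and 0.867%) are the lowest of the 14, and all kidney libraries lie between 0.575 and 0.682%.

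Other parts of the translation machinery gave the following values in the same fits. Ribosome biogenesis genes, which make and modify ribosomal RNA and assemble the subunits, had a median log2 fold change of 0.27 in KO over 45 genes (0 called, 9 with an unadjusted p under 0.05, all higher) and 0.076 in AF2 (0 called, 2 higher). Over all genes the shares under that p were 11.4% in KO (4.89% higher) and 11.8% in AF2 (4.95% higher). The shares of all genes called were 0.0226% in KO and 0.0677% in AF2. Translation factors with TOP messages had medians of 0.16 and 0.18 over 13 genes, with 0 called. Mitochondrial ribosomal proteins had medians of 0.058 and 0.11 over 77 genes, with 0 called in KO and 1 in AF2, Mrpl34 (345.5 ± 34.9 CPM in WT and 523.9 ± 95.5 CPM in AF2, log2 fold change 0.60 ± 0.12, adjusted p 0.0392). Ribosomal pseudogenes had medians of 0.29 and 0.45 over 40 symbols, with 0 and 1 called. The called pseudogene was Rpl31-ps8 (38.6 ± 8.79 CPM in WT, 73.1 ± 20.6 CPM in AF2, log2 fold change 0.92 ± 0.17, adjusted p 0.0392). Genes of mTORC1 and TOP control, including Mtor and Larp1, had medians of 0.10 and -0.089 over 10 genes, with 0 called. Of ribosomal proteins whose symbols the pattern does not match, 3 had higher means than WT in both mutants without passing: Rpsa (0.23 in KO, 0.42 in AF2), Fau (0.039 and 0.18) and Rack1 (0.17 and 0.19).

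Markers of cell types were also read in the same duodenal libraries. In KO, 6 of 6 Paneth cell markers were higher (median log2 fold change 0.93, summed level 2090 to 3870 CPM in WT and 3680 to 7650 CPM in KO), as were 11 of 11 crypt and cell cycle genes (median 0.38, 429 to 737 and 589 to 870 CPM). All 10 enterocyte markers were lower (median -0.42, 12300 to 25700 and 11800 to 15900 CPM). All 11 markers of exocrine pancreas were lower too (median -0.80), at summed levels that ranged from 42.1 to 18500 CPM within WT and from 100 to 10800 CPM within KO. In AF2, 10 of 10 smooth muscle markers were higher (median 0.50, 572 to 899 CPM in WT and 847 to 1090 CPM in AF2), 6 of 6 Paneth markers were higher (median 0.58) and 10 of 10 enterocyte markers lower (median -0.30). In AF2, 6 of 11 crypt and cell cycle genes were higher (median 0.13) and 8 of 11 pancreas markers lower (median -0.32). Smooth muscle markers in KO were higher in 3 of 10 (median -0.088). Of 7 immune cell markers tested, 4 were higher in KO (median 0.0095) and 4 in AF2 (median 0.012). Markers of a cell type share libraries and are not independent replicates. No marker of these lists passed the test, none was at 0, and their part in the ribosomal protein values was not tested. Fewer cells of a type and less RNA per cell cannot be told apart in bulk tissue.

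In the kidney of KO mice the ribosomal protein genes were spread evenly around WT. edgeR called 0 of 77 (0.844% of all 13502 genes were called), as did DESeq2 and limma-voom, and the median log2 fold change was 0.018. An unadjusted p under 0.05 was found for 2 genes (2.6%, against 10.5% of all genes), both lower in KO. Rps4x, the small subunit gene on the X chromosome, ranged from 3.91 to 11.2 CPM in WT (median 5.85) and was 3.09, 3.70, 3.54 and 2.65 CPM in KO. All KO libraries lay below WT, with a log2 fold change of -1.08 ± 0.42 (adjusted p 0.306). Rpl22l1, the paralog of Rpl22, had a WT mean of 23.5 ± 3.08 CPM and a KO mean of 18.0 ± 2.43 CPM (-0.38 ± 0.17, adjusted p 0.39).

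Groups did not overlap for 3 of 77 genes in KO kidney, where 3.44% of all genes did not overlap. They were Rps4x, Rpl26 and Rps15a. Rps15a ranged from 74.0 to 90.8 CPM in WT (median 81.6) and was 92.2, 94.2, 92.1 and 97.6 CPM in KO, a log2 fold change of 0.19 ± 0.10. Rpl26 ranged from 143.2 to 160.4 CPM in WT and was 162.2, 177.8, 165.8 and 167.9 CPM in KO (0.17 ± 0.11). Both groups of libraries were separated by less than 3 CPM for either gene. Among the highest log2 fold changes were those of Rps23 (1.12), Rpl35 (0.62), Rps3a3 (0.60) and Rpl36 (0.58), and among the lowest, beside Rps4x, those of Rps7 (-0.95), Rpl23a (-0.68) and Rpl36a (-0.67). All of these genes had WT means under 12 CPM and none passed.

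In AF2 kidney Rps14 passed the test, a protein of the platform of the small subunit whose loss of a copy underlies the anaemia of the human 5q deletion syndrome. It ranged from 238.6 to 315.5 CPM in WT (median 288.0) and was 349.9, 346.2, 343.7 and 514.0 CPM in AF2, against 267.2, 258.9, 270.9 and 247.3 CPM in KO. All 4 AF2 libraries lay above WT and KO, and AF2 4 stood far above the other 3. The log2 fold change was 0.45 ± 0.11 against WT (adjusted p 0.0203) and 0.57 ± 0.12 against KO (adjusted p 0.0295) by edgeR. Without AF2 4 it was 0.28 (adjusted p 0.131) and 0.41 (adjusted p 0.0725), so neither call stood. The call against KO was also lost without any single KO library, with adjusted p from 0.052 to 0.0927. With the code run as a term, which sets AF2 against WT 5 and WT 6 alone, the log2 fold change against WT was 0.32 ± 0.15 (adjusted p 0.424).

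Over all 77 genes the median log2 fold change of AF2 against WT was 0.048, and 42 genes (54.5%) were higher. The test called 1 of 77, where 2.71% of all genes were called. An unadjusted p under 0.05 was found for 12 genes higher and 5 lower, 22.1% of the 77 against 14.5% of all genes, and without AF2 4 for 4 and 4. The median without AF2 4 was 0.055. The groups did not overlap for 5 genes, all higher in AF2 and among them Rps14, Rpl26, Rps15a and Rps19bp1, where 4.73% of all genes did not overlap. Rps15a was 92.8, 100.9, 106.6 and 100.5 CPM in AF2, all above WT (0.28 ± 0.10, adjusted p 0.154, and 0.28 without AF2 4). Rpl26 was 160.8, 172.4, 176.2 and 236.1 CPM, the first of them within 1 CPM of the highest WT library (0.31 ± 0.11, adjusted p 0.113, and 0.17 with an adjusted p of 0.486 without AF2 4).

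The highest log2 fold changes in AF2 kidney were those of Rpl21 (0.82), Rps13 (0.64), Rps23 (0.57), Rps4l (0.49) and Rpl9 (0.47). Rps13 was at 0.28 without AF2 1 and 0.70 without AF2 4, and Rps23 at -0.31 without AF2 3. Among the lowest were those of Rps7 (-1.75), Rpl19 (-1.28), Rps4x (-0.94) and Rps27rt (-0.63). Without AF2 4 these 4 values were -1.63, -1.24, -0.58 and -0.57, and without AF2 2 that of Rps4x was -1.40. Rps27rt ranged from 16.2 to 36.3 CPM in WT (median 21.98) and was 11.6, 21.0, 17.2 and 13.8 CPM in AF2. Its groups overlapped through AF2 2 and AF2 3, and the adjusted p was 0.139. In a fit of all 28 libraries, WT 1 and WT 2 of code run 1 had 37.3 and 33.5 CPM of Rps27rt. WT 3 to WT 6 had 16.7 to 25.3 CPM, with 16.7 and 19.6 CPM in WT 5 and WT 6 of code run 3. Rps7 was at 7.11 and 6.33 CPM in WT 1 and WT 2 and at 0.745 to 2.94 CPM in WT 3 to WT 6. Without WT 1 the log2 fold change was -0.49 for Rps27rt and -1.42 for Rps7. None of these genes passed.

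Between AF2 and KO kidney the test called 1 of 77 genes, Rps14, where 0.333% of all genes were called, and the median log2 fold change was -0.012, or 0.015 without AF2 4. Rps19, mutated in Diamond-Blackfan anaemia, was next. It ranged from 176.8 to 216.7 CPM in WT (median 198.7), while the 4 KO libraries had 172.0, 174.9, 175.3 and 178.1 CPM. The AF2 libraries had 221.3, 238.8, 212.8 and 321.3 CPM. The KO libraries lay within 7 CPM of each other and below all AF2 libraries, with a log2 fold change of 0.51 ± 0.12 for AF2 against KO (adjusted p 0.0539). Without AF2 4 it was 0.35 (adjusted p 0.156). The groups did not overlap for 8 genes higher in AF2 (Rps14, Rps19, Rps13, Rps4l, Rplp0, Rpl22l1, Rpl34 and Rpl37) and for 1 lower gene, where 7.16% of all genes did not overlap. The share of library counts was 0.578 to 0.629% in WT, 0.575 to 0.678% in KO and 0.621 to 0.682% in AF2, with means of 0.598 ± 0.017% (SD, n = 6), 0.624 ± 0.044% and 0.651 ± 0.0297% (SD, n = 4 each), and 0.641 ± 0.0263% in AF2 without AF2 4 (SD, n = 3).

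Related lists in kidney had medians close to WT, except for the pseudogenes in AF2. In KO against WT the medians were -0.035 for 76 mitochondrial ribosomal proteins, 0.059 for 45 biogenesis genes and 0.058 for 13 TOP list genes. Each list had 0 called. In AF2 the medians were 0.0097, 0.050 and 0.063, with 1, 0 and 0 called. The shares of all genes called were 0.844% in KO and 2.71% in AF2. The called gene was Mrps6, with a WT mean of 191.1 ± 19.3 CPM and an AF2 mean of 257.7 ± 25.4 CPM (log2 fold change 0.43 ± 0.10, adjusted p 0.0134). Pseudogenes had a median of -0.29 in AF2 over 33 symbols, of which 25 were lower and 8 higher, with 0 called. Their summed share of library counts was 0.0474, 0.0346, 0.0282, 0.0316, 0.0283 and 0.0289% in WT 1 to WT 6. In AF2 the share was 0.0262 to 0.0309%. WT 5 and WT 6, which are in code run 3 with all AF2 libraries, lay within that range. Without AF2 4 the medians were -0.034 for mitochondrial ribosomal proteins, 0.017 for biogenesis genes, 0.077 for the TOP list and -0.27 for pseudogenes. Mrps6 was then at 0.36 (adjusted p 0.0394 by edgeR). Rpsa (0.30 in KO and 0.22 in AF2), Rack1 (0.051 and 0.20) and Fau (-0.21 and -0.86) did not pass.

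Single libraries in which a gene dropped were then sought. A drop was a level at or under 1/4 of the median CPM of the other libraries of the group, where that median predicted at least 20 counts. In duodenum 1 of 989 gene and library pairs was a drop. Rps27 had 2 counts in KO 4, where 20.6 were expected. The gene had 5.63, 1.01, 4.69 and 0.456 CPM in the 4 KO libraries in order, 0.981 to 3.88 CPM in WT (median 2.11) and 3.46, 1.69, 1.73 and 1.98 CPM in AF2. KO 2 was low too, and the gene lies near the limit of what these counts can show.

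In kidney 6 of 863 pairs were drops, all of them in AF2 4, and in neither tissue was any of these pairs, all with 20 or more counts expected, at 4 times or more of its group. Rps16 had 2 counts where 61.6 were expected, and was 14.6, 11.2, 6.29 and 0.364 CPM in AF2 1 to AF2 4. Rpl30, a large subunit protein that can also bind selenocysteine insertion elements, had 10 counts against 177.4 expected, at 32.3, 33.2, 32.3 and 1.82 CPM. For both the other 3 AF2 libraries lay within the WT range, except AF2 3 for Rps16, which lay just below it. WT ranged from 7.33 to 15.3 CPM for Rps16 and 22.4 to 41.5 CPM for Rpl30.

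Rps3a1 had 16 counts against 116.3 expected, at 21.2, 23.8, 15.5 and 2.91 CPM in AF2, with WT at 14.8 to 24.9 CPM and KO at 20.1, 19.3, 24.2 and 19.3 CPM. Rps4x had 4 counts against 23.0 expected, at 3.03, 6.54, 4.20 and 0.729 CPM. Rpl3, which reaches to the peptidyl transferase centre, had 6 counts against 25.7 expected, at 3.53, 4.67, 6.71 and 1.09 CPM, with WT at 3.36 to 7.11 CPM. These 3 were low in AF2 4, while Rps14 and Rps19 were at their highest in the same library. At an eighth of the group median 3 of the drops remained in the count, and with at least 100 counts expected 2.

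AF2 4 was unlike the other kidney libraries across the whole set. The SD of the log2 ratio to the group median over ribosomal protein genes was 1.02 in AF2 4 and 0.248 to 0.403 in the other 13. Drops made up 6 of 63 measurable ribosomal protein genes in it (9.52%), 2 of 74 mitochondrial ribosomal proteins (2.7%) and 0 of 13 pseudogenes, beside 1.91% of all genes. Its median log2 ratio was 0.15 for core genes with under 50% of stretches shared, -0.22 for those with 50% to under 75% and -0.39 for those with 75% or more. This order was not particular to AF2 4. KO 1 (-0.057, -0.15 and -0.31) and WT 5 (0.0072, -0.097 and -0.16) had it too. Its summed share of ribosomal protein counts, 0.682%, was the highest of the 14, so the total was not low where single genes were.

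**Figure D5:**
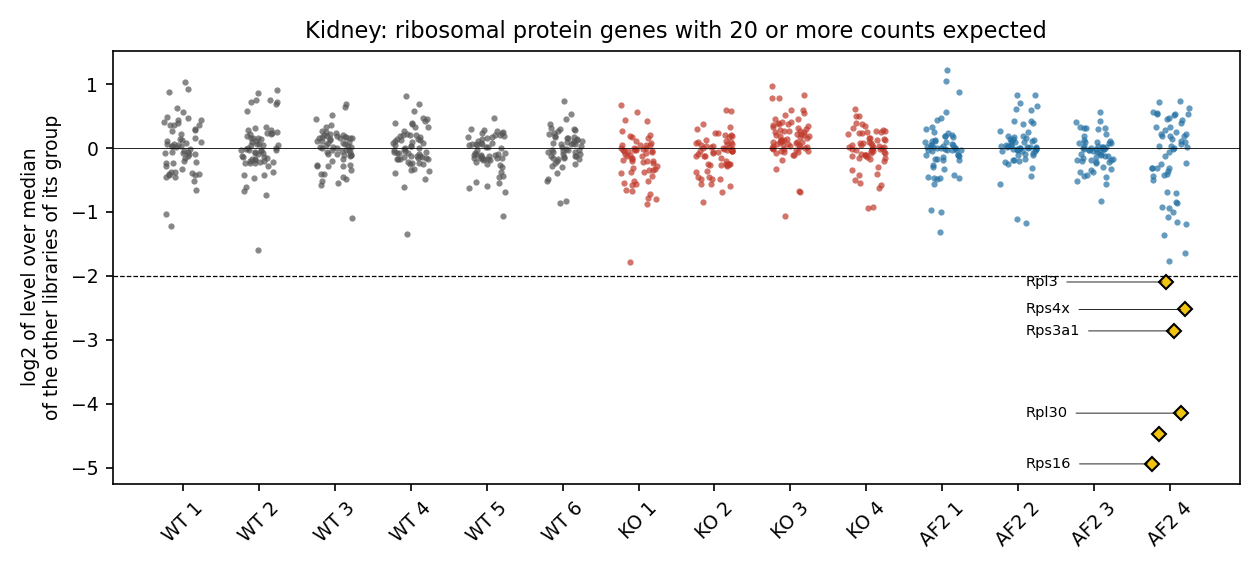
Log2 ratio of each ribosomal protein gene in a kidney library to the median of the other libraries of its group (y axis), for genes with 20 or more counts expected, 14 libraries on the x axis. The dashed line marks 1/4 of the median, and the 6 genes below it, 5 of them named, are all in AF2 4.

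Between the tissues of WT mice the ribosomal protein genes were mostly higher in duodenum. In 1 fit of all 28 libraries 54 of 84 genes differed between WT duodenum and WT kidney, 49 higher and 5 lower in duodenum, against 70.3% of all 15133 genes called in either direction. The share called was thus near the background, while the median log2 difference was 0.60, against 0.016 over all genes and -0.16 over 77 mitochondrial ribosomal proteins. Tissue and preparation of the libraries cannot be told apart. The highest called differences were those of Rps12 (11.1 ± 2.26 against 2.77 ± 2.08 CPM, log2 difference 2.02 ± 0.33, adjusted p 1.36e-06), Rpl22l1 (97.9 ± 15.4 against 24.2 ± 3.16 CPM, 2.02 ± 0.12, adjusted p 2.79e-17) and the stalk gene Rplp2 (276.7 ± 27.2 against 73.2 ± 5.64 CPM, 1.92 ± 0.11, adjusted p 2.2e-18; SD, n = 6 each). Rps29 (1.86 ± 0.40) and Rpl36al (1.82 ± 0.24) followed.

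The 5 genes higher in kidney were Rpl15 (15.2 ± 2.69 against 30.0 ± 4.49 CPM in duodenum and kidney, log2 difference -0.97 ± 0.18), Rps27rt (-0.64 ± 0.22), Rps19 (132.1 ± 19.2 against 203.2 ± 15.8 CPM, -0.62 ± 0.11), Rpl5 (-0.51 ± 0.23) and Rps2 (109.3 ± 8.70 against 139.6 ± 14.7 CPM, -0.35 ± 0.13), with adjusted p from 6.05e-06 to 0.0413. The call of Rpl5 was lost in 7 of 12 fits that left out 1 WT library (duodenum 2, 3, 5 or 6, kidney 1, 2 or 3; adjusted p 0.0555 to 0.0955). Rps19 was higher in each WT kidney library (181.8 to 222.5 CPM) than in any WT duodenal one (107.2 to 158.9 CPM). Rps20 went the other way (247.8 to 324.1 CPM in WT kidney against 524.3 to 641.3 CPM in WT duodenum). The summed counts of small subunit core genes over those of large subunit core genes were 1.29 ± 0.0396 in WT duodenum and 1.04 ± 0.00757 in WT kidney (SD, n = 6 each), with no overlap between tissues in any genotype (1.24 to 1.37 and 0.973 to 1.10). Rpl3l, a paralog of Rpl3 known from heart and skeletal muscle, had 0 counts in all 14 duodenal libraries and 1.41 ± 0.595 CPM in WT kidney. Rps4l was 1.67 ± 0.16 higher in duodenum on the log2 scale, while Rps27l (-0.039 ± 0.10) and Rpl7l1 (0.098 ± 0.16) did not differ by the test. Of the genes outside the pattern, Fau (2.11 ± 0.38), Rack1 (1.40 ± 0.082, 917.1 against 346.6 CPM) and Rpsa (0.88 ± 0.20) were higher in duodenum.

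The effect of each mutant was compared between tissues as an interaction. For KO the test called 0 of 84 genes by edgeR, DESeq2 and limma-voom (edgeR called 0.0529% of all genes). At an unadjusted p under 0.05, 5 genes were more positive in duodenum and 1 more negative (7.14%, against 7.9% of all genes), with a median difference of 0.16. For AF2 edgeR called 0 of 84 (0.304% of all genes), DESeq2 2 and limma-voom 0, with 13 genes more positive in duodenum and 2 more negative at an unadjusted p under 0.05 (17.9%, against 10.5% of all genes), and a median difference of 0.21. Medians over all genes were -0.037 and -0.021. The smallest adjusted p was that of Rps27rt, whose AF2 effect was 1.42 ± 0.35 higher in duodenum as a log2 difference (adjusted p 0.0542): it was 0.82 in duodenum and -0.63 in kidney. Rpl18 followed with 1.07 ± 0.30 (adjusted p 0.117). The kidney value of Rps27rt was -0.49 without WT 1, its highest kidney WT library. An effect that passed in one tissue, such as that of Rps20 (interaction 0.32 ± 0.16, adjusted p 0.464) or Rps14 (-0.26 ± 0.16, adjusted p 0.591), was not shown to differ between the tissues.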

How the data were processed

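Tag counts of 28 QuantSeq libraries (total RNA, 3' ends) were used as the authors deposited them, as raw counts per gene symbol in 1 table per tissue. Per the submitters' processing notes the build was mm10 and limma 3.34.9 was used, in a role not stated; for aligner, counter, strand and reads that fit several genes the entry is: not given in the sources used here. All deposited counts were even, 0 being odd, so a fit on counts divided by 2 was tried. Library totals (3713352 to 25181916) set the precision. Nothing says that the samples of a group came from separate mice, so p-values measure the spread between these samples, which may be technical.

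Each tissue was fitted over its 14 libraries with edgeR 4.0.16 in R 4.3.3 (filterByExpr, TMM, robust quasi-likelihood test, Benjamini-Hochberg adjustment over all genes tested), and genes with an adjusted p under 0.05 were called. Levels are CPM on the TMM-scaled library size. Tissue differences and interactions came from 1 fit of all 28 libraries, joining tables deposited separately. Windows near the stop codon came from GENCODE vM21 and starts from RefSeq. The code was tested on simulated data for AF2 against WT, with 50 genes changed at each of 4 fold sizes. Only genes above a minimum level were changed. In duodenum (13032 genes) 100, 84, 34 and 2% of genes changed 4, 2, 1.5 and 1.25-fold were recovered. In kidney (13202 genes) the same rates were 100, 82, 32 and 4%. The rates do not cover thinly counted genes such as Rpl10a, Rpl11 and Rps7. No 2 libraries were identical, and none differed by as little as sampling noise.

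The genes and lists were chosen with earlier results of these data known. Named are genes called in any comparison or dropping in a library, the 5 highest and 5 lowest in each mutant against WT, paralogs and retrogenes, Rpsa, Fau and Rack1, the 5 highest and 5 lowest called between tissues, and up to 4 called genes of a list. A few genes that this rule would name are not reported here. Other genes, such as Rplp1, Rps15a, Rps19, Rps26 and Rpl26, were named after their values were seen, mostly because groups did not overlap. Alternatives were other scalings and filters, DESeq2 1.42.0, limma-voom (limma 3.58.1), 2-group fits, blocks and leaving out libraries.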

Additional observations from a re-analysis of the deposited data

Results flagged for a closer look

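In 63 groups of 4 or 6 libraries with printed values, the highest or lowest library was compared with its nearest neighbour by Dixon's criterion. It stood apart in 5 groups. Many of these genes were named for their values in these same libraries, so a chance rate does not apply to this count. In duodenum these were Rps23 in WT 4 (3.08 CPM, the lowest of 6) and Rps27 in AF2 1 (3.46 CPM, the highest of 4). In kidney they were Rps3a1 in KO 3 (24.2 CPM, the highest of 4) and 2 genes in AF2 4, Rps14 (514.0 CPM) as the highest and Rpl30 (1.82 CPM) as the lowest of 4.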

How the results depend on the processing

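In duodenum AF2 against WT, where 1 gene was called, library totals alone gave 2, no filter 3, DESeq2 3, limma-voom 0, the 2 groups alone 0, the code run as a block 6, and leaving out single libraries 0 to 6, the 6 being without WT 4. Over all genes the first 6 of these fits called 45, 240, 156, 0, 0 and 131, against 9. In kidney AF2 against WT (1 called), no filter gave 2, the 2 groups alone 0, the code run block 0 and leaving out single libraries 0 to 1, the 0 being without AF2 4 (all genes 590, 325 and 121, against 366). In kidney AF2 against KO (1 called), no filter, DESeq2 and halved counts each gave 2, the 2 groups alone and the code run block 0, and leaving out single libraries 0 to 2 (all genes 193, 152, 67, 36 and 1, against 45). For the AF2 interaction (0 called), RLE factors, library totals and halved counts gave 1, no filter and DESeq2 2, and leaving out single libraries 0 to 1 (all genes 54, 72, 62, 120 and 184, against 46). The code run block moved the duodenal medians to 0.0677 (KO against WT), 0.401 (AF2 against WT) and 0.312 (AF2 against KO). That block sets each mutant against only the 2 WT libraries of its own run. Without single libraries the median ranged from -0.0504 to 0.0457 for kidney KO against WT and from -0.0617 to 0.078 for kidney AF2 against KO, -0.0504 and 0.078 being without KO 3. It ranged from -0.00443 to 0.127 for duodenum AF2 against KO and from 0.00948 (without WT 1) to 0.0618 for kidney AF2 against WT.

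With the replicate number as a block, calls were 0 in duodenum AF2 against WT, 3 in kidney AF2 against WT and 0 in kidney AF2 against KO (all genes 1, 338 and 52). Same-numbered libraries correlated at -0.281 to 0.129 in duodenum (2 of 12 pairs over 0.1) and -0.0539 to 0.232 in kidney (1 of 12), so the numbers were not taken as pairs; the blocks for tissue and interactions were added after seeing the data.

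Drops in a single library were 20 in duodenum and 24 in kidney at 1/2 of the median, 3 in kidney at 1/8, and 0 and 2 with at least 100 counts expected. Signs turned for Rps19 (0.133) and Rps25 (0.312) in duodenum AF2 with the code run block, and, without single libraries, for Rpl35 (-0.307 to 0.0272), Rpl19 (-0.391 to 0.0275) and Rpl27 (-0.653 to 0.0282) in duodenum KO. In kidney the code run block turned Rps7 (0.663) and Rps3a3 (-0.31) in KO, and leaving out libraries took Rps23 in AF2 from -0.311 to 0.876. The cause was not tested. At these depths most genes changed 1.5-fold would be missed, by a simulation that changed no thinly counted genes. For thinly counted genes the recovery was not tested.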
